A study of Rattus norvegicus with 47 samples.

Results

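The 6 genes described here act in the handling and reading of thyroid hormone by brain cells: the receptors Thra and Thrb, the uptake carrier Slco1c1, the activating deiodinase Dio2, the cytosolic hormone-binding protein Crym and the corepressor Hr, itself a hormone-induced gene. They were listed by symbol, matched by gene identifier to the count tables of both regions, and found as 6 of 15319 genes in each. The rule uses no measured value.

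RNA was sequenced from tissue punches of striatum and cerebellum of Sprague-Dawley rats, an outbred strain, that inhaled PCB52 (a tetrachlorinated biphenyl) or were sham-exposed. Animals of both sexes arrived at an age of 28 days, had 8 days of acclimation and training in the nose-only apparatus, and were assigned at 39 days (males) or 42 days (females). Exposure to air passed over beads coated with PCB52 lasted 28 days, for 4 h a day. Striatum was represented by 4 Sham males, 6 PCB52 males, 6 Sham females and 6 PCB52 females, and cerebellum by 5, 5, 6 and 6 of the same groups, with 21 animals giving both regions. All groups share strain, diet and the nose-only apparatus, and no allele is named for any of them. Each library is named by region, group and animal number.

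Thyroid hormone reaches the brain mainly as the prohormone thyroxine. Slco1c1 carries thyroxine across the endothelium of brain vessels and into astrocytes, Dio2 in astrocytes removes an outer-ring iodine to give the active hormone triiodothyronine, and neurons take this up through other carriers. In the nucleus the receptors sit on DNA with a retinoid X receptor and hold genes down through corepressors until the hormone binds. Polychlorinated biphenyls are known for lowering circulating thyroxine in rats, and cerebellum and striatum are both known as places where genes respond to the hormone.

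For the receptors and the deiodinase a promoter window was at hand (3 of the 6 genes, RefSeq on the assembly GRCr8, the 250 bases before a transcript start, 5′ to 3′ on the gene's strand). They are shown so that the sequence beside each start can be set next to the gene's levels in the 2 regions. Capitals mark matches of a GC box (GGGCGG on either strand, found in 30.5% of 33469 rat windows of this length) or a TATA box (TATAAA, 12.9%).
Thra, chr10:84197891-84198140, plus strand: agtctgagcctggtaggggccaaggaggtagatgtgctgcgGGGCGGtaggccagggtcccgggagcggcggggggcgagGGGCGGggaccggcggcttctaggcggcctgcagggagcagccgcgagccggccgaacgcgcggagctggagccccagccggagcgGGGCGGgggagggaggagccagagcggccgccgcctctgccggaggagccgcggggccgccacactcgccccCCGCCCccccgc
Thrb, chr15:10461447-10461696, minus strand: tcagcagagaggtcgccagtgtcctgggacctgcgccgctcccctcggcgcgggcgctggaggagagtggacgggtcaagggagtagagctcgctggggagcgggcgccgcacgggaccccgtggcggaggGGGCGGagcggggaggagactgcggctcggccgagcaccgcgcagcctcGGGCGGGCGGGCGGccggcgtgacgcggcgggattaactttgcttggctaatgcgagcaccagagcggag
Dio2, chr6:115410595-115410844, minus strand: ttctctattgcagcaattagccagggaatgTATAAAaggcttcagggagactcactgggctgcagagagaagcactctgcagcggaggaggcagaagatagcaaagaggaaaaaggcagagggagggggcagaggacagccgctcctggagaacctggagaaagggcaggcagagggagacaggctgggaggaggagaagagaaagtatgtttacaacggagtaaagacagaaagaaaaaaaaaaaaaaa

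The receptor windows held 79.6% (Thra) and 74.0% (Thrb) G and C, against a median of 51.2% over all windows, and each had 4 GC box matches, some of them overlapping in Thrb. The Dio2 window held 49.6% G and C, no GC box and 1 TATA box match 220 to 215 bases before the start. A second start of Thra had a window of 44.8% G and C with no match. The hormone receptor half-site AGGTCA (14.1% of all windows), its direct repeat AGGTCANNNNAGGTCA (0.003%) and the cyclic AMP response element TGACGTCA (1.59%) were searched on both strands and were not in these windows, which says only that these letters are not there.

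Library totals were 5684508 to 8914523 counts in striatum and 6524400 to 15865054 in cerebellum. The regions carried their own markers: a list of 9 striatal projection neuron genes had a mean of 8.65 to 9.89 log2 CPM (counts scaled to library size) in striatum and 3.05 to 4.16 in cerebellum, and a list of 7 granule cell genes 8.85 to 9.69 in cerebellum and 0.396 to 5.70 in striatum. Rules on sex transcripts and on tissue lists marked 10 of the 44 libraries. Transcripts of both sexes were found in cerebellum Sham female 8, male 9, female 10 and male 11 and in striatum Sham male 3. Another tissue's genes were high in striatum PCB52 female 20 and cerebellum Sham male 1 (choroid plexus), striatum PCB52 female 14 and male 19 (cortical neurons) and striatum PCB52 female 22 (granule cells). In cerebellum the cortical neuron list stood at 4.58 to 5.58 log2 CPM in every library, and its rule marked none there. Cerebellum PCB52 females 16, 18 and 24, high in Nrgn (given below), were thus not marked and stayed in these sets' fits. The count of the 6 genes called in each comparison was also taken without each of the marked sets. In these bulk samples, fewer cells of a type and less RNA per cell cannot be told apart.

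Levels differed most between the regions. Among Sham animals, 5 of the 6 genes passed an adjusted p of 0.05 between striatum and cerebellum, 4 higher in striatum and Hr lower, in a set of all genes of which 69.8% passed (edgeR's quasi-likelihood F-test, Benjamini-Hochberg adjustment over 12446 genes). A share of this size is near that of all genes and is not particular to these 6. The same 5 passed without the 5 libraries that held transcripts of both sexes, and without the 5 high in another tissue's genes. Levels below are CPM scaled by TMM-adjusted library size. They are compared between samples of a gene only, since no transcript length was at hand.

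Thra encodes the receptor that carries most hormone signalling in brain neurons, and a splice form that binds no hormone; the counts do not separate them. In striatum it stood at 704, 730.0, 753 and 723 CPM in the 4 Sham males, from 736 to 809 with a median of 762 in PCB52 males, from 666 to 835 (median 769) in Sham females and from 664 to 781 (median 716) in PCB52 females. In cerebellum it stood at 441, 521, 477, 513 and 432 CPM in Sham males, 463, 601, 507, 549.6 and 496 in PCB52 males, from 410.1 to 497 (median 462) in Sham females and from 449.7 to 578 (median 476) in PCB52 females. Every striatal library lay above every cerebellar one. The difference in Sham animals was 0.67 ± 0.05 (log2, SE), or 1.59-fold, with an adjusted p of 3.63e-14 in edgeR, and striatum was higher in 21 of 21 animals with both regions. At its 3′ end Thra overlaps Nr1d1, a clock repressor on the opposite strand, and the use of strand in counting is not given in the sources used here. Nr1d1 itself differed by 0.18 ± 0.06 (edgeR adjusted p = 0.00487), with 16 of 21 animals higher in striatum.

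Thrb encodes the other receptor, known for hormone feedback in the pituitary and for its part in hearing. Striatal Sham males had 67.9, 57.7, 64.4 and 71.0 CPM, PCB52 males 64.0 to 76.2 (median 69.0), Sham females 41.9 to 88.0 (median 71.8) and PCB52 females 53.3 to 106 (median 67.3). Cerebellar Sham males had 10.4, 9.26, 6.75, 7.14 and 9.17 CPM, PCB52 males 8.65, 4.38, 8.66, 8.61 and 2.95, Sham females 5.46 to 10.8 (median 8.57) and PCB52 females 6.35 to 19.9 (median 8.47). The regions did not overlap. The difference in Sham animals was 2.95 ± 0.18 (log2), or 7.71-fold, with an adjusted p of 2.63e-18 in edgeR, and 21 of 21 animals were higher in striatum. The cerebellar values rest on 18 to 144 counts a library, so their counting error is the largest of the 6 genes.

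Set against each other within a library, the receptors differed in balance. Counts of Thrb were 9.27% ± 2.15 (SD, n = 22) of those of Thra in striatum, with a range of 5.02% to 15.99%. In cerebellum they were 1.78% ± 0.73 (SD, n = 22), with a range of 0.596% to 4.28%. The ratio is free of library scaling but not of transcript length, so it is compared between regions and not read as a ratio of molecules.

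Slco1c1 encodes the organic anion transporter OATP1C1, the thyroxine carrier of brain vessels. Striatal Sham males had 149, 135.7, 123 and 152 CPM, PCB52 males 128 to 163 (median 144), Sham females 98.2 to 125 (median 120.4) and PCB52 females 103 to 161 (median 136). Cerebellar Sham males had 67.7, 53.3, 61.6, 58.8 and 56.7 CPM, PCB52 males 57.6, 62.1, 66.0, 67.5 and 62.2, Sham females 47.6 to 67.6 (median 54.1) and PCB52 females 48.1 to 66.7 (median 64.0). The regions did not overlap. Sham animals differed by 1.15 ± 0.07 (log2), or 2.22-fold (edgeR adjusted p = 1.11e-17), and 21 of 21 animals were higher in striatum. A list of 8 endothelial genes, all measured, also stood higher in striatum, at a mean of 5.38 to 6.17 log2 CPM in its Sham libraries against 4.42 to 4.89 in those of cerebellum; its part in the difference was not tested.

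Dio2 was the gene whose region difference did not pass the test. Striatal Sham males had 37.3, 37.8, 23.4 and 45.3 CPM, PCB52 males 30.4 to 51.9 (median 37.8), Sham females 19.8 to 45.9 (median 34.6) and PCB52 females 37.4 to 47.5 (median 40.7). Cerebellar Sham males had 39.6, 31.4, 43.1, 32.7 and 39.5 CPM, PCB52 males 44.9, 21.9, 35.7, 31.1 and 25.6, Sham females 32.7 to 46.0 (median 40.8) and PCB52 females 22.1 to 44.9 (median 35.4). All 8 groups overlapped. The difference in Sham animals was -0.12 ± 0.14 (log2, 95% interval -0.40 to 0.16; edgeR adjusted p = 0.451), and 12 of 21 animals were higher in striatum. A list of 8 astrocyte genes, the cells that express Dio2, stood at a mean of 7.48 to 8.27 log2 CPM in striatal and 7.22 to 7.56 in cerebellar Sham libraries.

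Crym encodes μ-crystallin, which binds triiodothyronine in the cytosol and is abundant in striatal neurons. Striatal Sham males had 144, 152, 194 and 98.3 CPM, PCB52 males 125 to 176 (median 138), Sham females 109 to 241 (median 161) and PCB52 females 111 to 202 (median 136). Cerebellar Sham males had 15.04, 16.8, 22.8, 18.6 and 11.1 CPM, PCB52 males 13.1, 22.7, 19.2, 16.3 and 19.4, Sham females 9.09 to 19.7 (median 14.6) and PCB52 females 10.9 to 21.6 (median 20.5). Every striatal library held 98.3 CPM or more and every cerebellar one 22.8 or less. This was the widest region difference of the 6, at 3.30 ± 0.16 (log2), or 9.85-fold, with an adjusted p of 2.42e-21 in edgeR and 21 of 21 animals higher in striatum.

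Hr, the hairless corepressor that binds thyroid hormone receptors and is induced by the hormone in developing brain, ran the other way. Striatal Sham males had 59.0, 46.1, 31.5 and 51.9 CPM, PCB52 males 34.1 to 51.7 (median 45.4), Sham females 22.4 to 80.1 (median 40.1) and PCB52 females 44.2 to 65.8 (median 51.9). Cerebellar Sham males had 189.9, 148, 160.3, 129.6 and 147 CPM, PCB52 males 150.5, 115, 139, 160.3 and 75.6, Sham females 121 to 158 (median 142) and PCB52 females 101 to 182 (median 136). The regions overlapped at 1 point each, the 80.1 CPM of striatum Sham female 4 and the 75.6 CPM of cerebellum PCB52 male 23. The difference in Sham animals was -1.70 ± 0.15 (log2), a fold of 0.307, with an adjusted p of 7.37e-13 in edgeR, and striatum was lower in 21 of 21 animals.

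**Figure D1:**
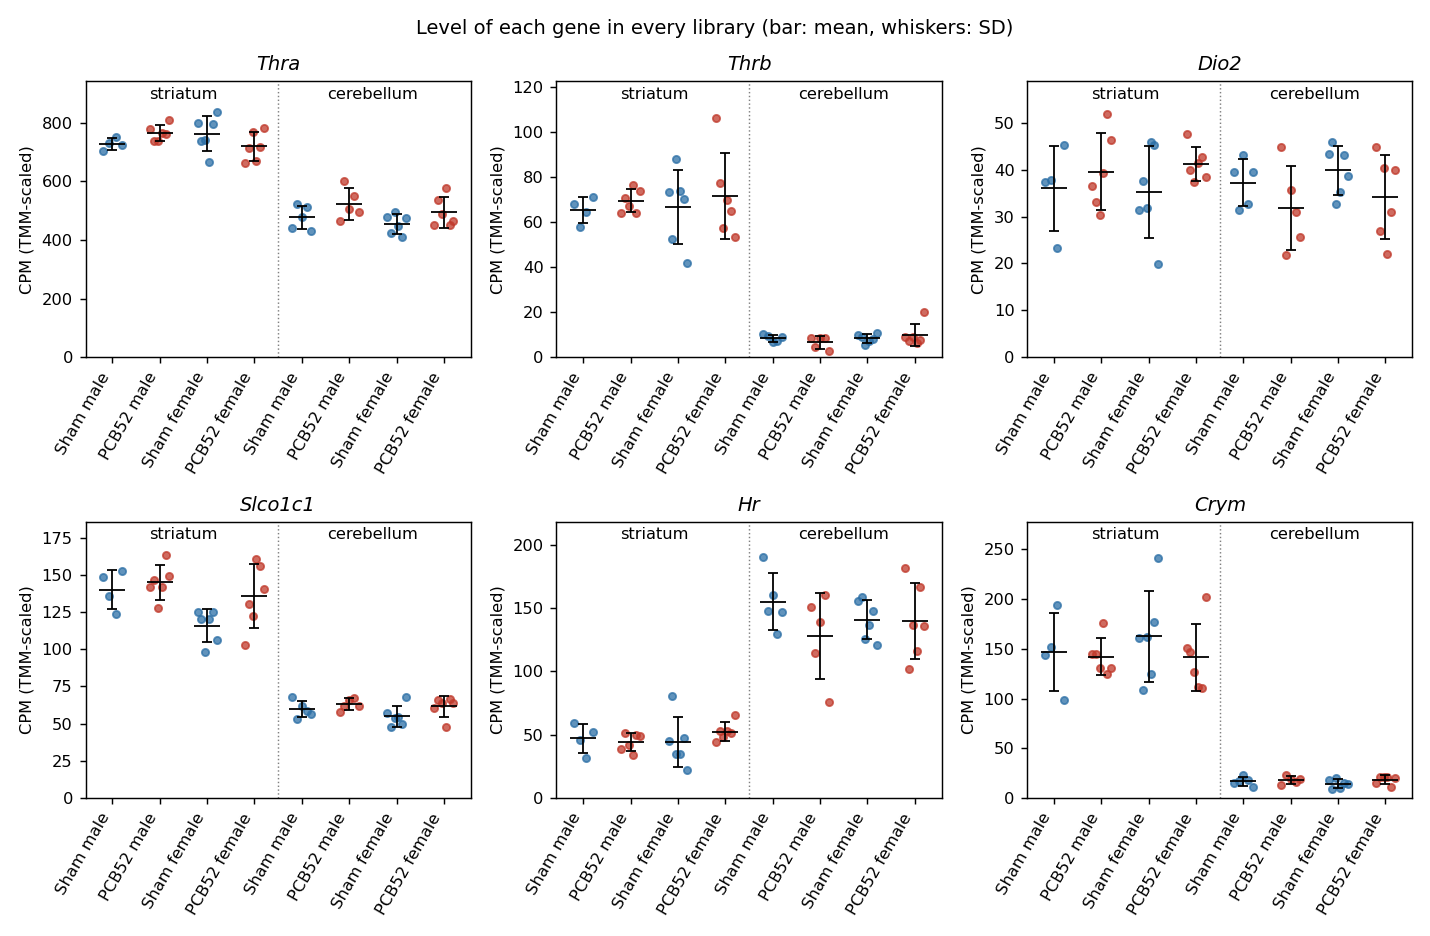
Level of each of the 6 genes in every library, in CPM scaled by TMM-adjusted library size (vertical axis, linear, from 0), by region, sex and treatment; blue points are Sham and red points PCB52 libraries, bars are group means and whiskers the SD. Thra, Thrb, Slco1c1 and Crym separate the regions without overlap, Hr is higher in cerebellum and Dio2 overlaps throughout, while Sham and PCB52 points of a region and sex overlap in each panel.

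For each of the 6 genes, neighbours in the order of the 4 group means of a region differed by less than the larger of their SDs. Thra in striatum ran from 719 ± 48.7 CPM (SD, n = 6) in PCB52 females through 727 ± 20.1 (n = 4) in Sham males and 763 ± 60.1 (n = 6) in Sham females to 765 ± 27.3 (n = 6) in PCB52 males. The ends of that order lay further apart for some genes: striatal Slco1c1 ran from 115.9 ± 10.997 CPM (SD, n = 6) in Sham females to 145.0 ± 11.6 (n = 6) in PCB52 males. Cerebellar Thra ran from 455 ± 33.7 CPM (SD, n = 6) in Sham females to 523 ± 53.4 (n = 5) in PCB52 males.

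None of the 6 genes passed the test for PCB52 against Sham. In striatum the count was 0 of 6 in males, 0 of 6 in females and 0 of 6 for the mean of the sexes, with 0% of 12142 genes passing in each (edgeR, adjusted p of 0.05). In cerebellum it was likewise 0 of 6 in males, females and their mean, with 0% of 11690 genes passing. At an unadjusted p under 0.05, edgeR gave 109, 1633 and 704 genes in the striatal comparisons and 1673, 369 and 1727 in the cerebellar ones, among them 1 of the 6, Slco1c1 in striatal females. DESeq2 called 1, 23 and 0 genes in striatum and 1, 9 and 21 in cerebellum, limma none, and none of the 6 genes was called by either. Without the libraries high in another tissue's genes edgeR called 1 gene in striatal females, not one of the 6.

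For the receptors the estimates in striatum were small, but the 95% intervals of Thrb there were wide. They were -0.27 to 0.44 in males and -0.22 to 0.41 in females, on the log2 scale. Thra differed between PCB52 and Sham by 0.07 ± 0.08 (SE) in striatal males, -0.09 ± 0.07 in striatal females, 0.12 ± 0.08 in cerebellar males and 0.09 ± 0.08 in cerebellar females. Its 95% interval for the mean of the sexes was -0.12 to 0.10 in striatum and -0.01 to 0.22 in cerebellum. Nr1d1, its overlapping neighbour, differed by -0.03 ± 0.08, -0.06 ± 0.07, 0.03 ± 0.10 and 0.04 ± 0.09 in the same order. Thrb differed by 0.09 ± 0.17 and 0.09 ± 0.15 in striatal males and females. In cerebellum it differed by -0.36 ± 0.32 in males and 0.20 ± 0.28 in females, with intervals as wide as -1.02 to 0.30 and -0.39 to 0.79.

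Slco1c1 gave the lowest p of the 6 genes. Striatal Sham females had 125, 120.4, 98.2, 120.4, 125 and 107 CPM (animals 2, 4, 6, 8, 10 and 12), and PCB52 females 103, 130.6, 122, 161, 156 and 141 (animals 14 to 24, even numbers). The ranges overlap, with 4 of the 6 PCB52 females above every Sham female. The difference was 0.22 ± 0.10 (log2), or 1.17-fold, with a 95% interval of 0.02 to 0.42, an unadjusted p of 0.0320 and an adjusted p of 0.350 in edgeR. Without the libraries high in another tissue's genes, which takes PCB52 females 14, 20 and 22 away, it was 0.18 ± 0.10 (edgeR adjusted p = 0.907). The endothelial list stood at 5.38 to 6.06 log2 CPM in the Sham and 5.57 to 6.03 in the PCB52 females, and Sham female 12 was the lowest striatal library for it; its part was not tested. Striatal males differed by 0.05 ± 0.11, cerebellar males by 0.06 ± 0.10 and cerebellar females by 0.14 ± 0.09.

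Dio2, the enzyme that rises in the hypothyroid brain, differed by 0.13 ± 0.19 in striatal males and 0.22 ± 0.17 in striatal females, and by -0.24 ± 0.20 and -0.24 ± 0.18 in cerebellar males and females. The mean over the sexes was 0.18 ± 0.13 in striatum and -0.24 ± 0.14 in cerebellum (unadjusted p = 0.0938, adjusted p = 0.334 in edgeR). In cerebellum, PCB52 males 15, 21 and 23 (21.9, 31.1 and 25.6 CPM) and PCB52 females 16, 20 and 22 (26.9, 22.1 and 30.9) lay below the lowest Sham library at 31.4, and the other PCB52 libraries among the Sham values. Males 15 and 23 and females 16 and 20 were also the lowest of the region for the astrocyte list, at 6.91, 6.76, 7.15 and 6.999 log2 CPM against 7.22 to 7.56 in the Sham libraries; its part in the Dio2 values was not tested.

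Crym differed by -0.05 ± 0.20 in striatal males and -0.20 ± 0.18 in striatal females, and by 0.08 ± 0.22 and 0.31 ± 0.20 in cerebellum. Hr differed by -0.10 ± 0.23 in males and 0.25 ± 0.21 in females of striatum, and by -0.29 ± 0.18 and -0.03 ± 0.17 in cerebellum. Their 95% intervals were wide for both, for example -0.57 to 0.16 for Crym and -0.18 to 0.68 for Hr in striatal females. Single libraries moved these uncalled values: Hr there was 0.51 without Sham female 4 and 0.12 without Sham female 12. For Crym, leaving out PCB52 female 24 gave -0.34 and leaving out Sham female 12 gave -0.059.

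**Figure D2:**
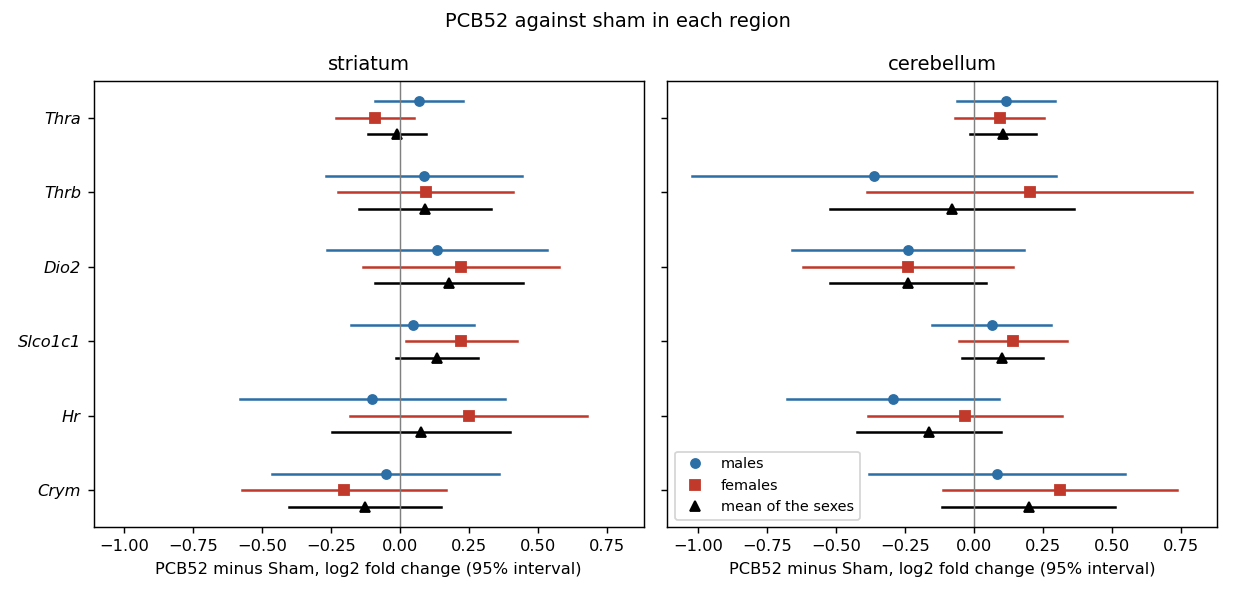
PCB52 minus Sham for each gene as a log2 fold change (horizontal axis) with its 95% interval from the edgeR fit, in striatum (left) and cerebellum (right), for males (circles), females (squares) and the mean of the sexes (triangles). All intervals include 0 except that of Slco1c1 in striatal females, 0.02 to 0.42, and the widest are those of Thrb in cerebellum.

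The differences between these effects were tested in their own right. The female minus the male effect passed for 0 of 6 genes in striatum and for 0 of 6 in cerebellum (0% of all genes in each; edgeR's unadjusted p was under 0.05 for 471 and 254 genes, DESeq2 called 0 and 4, and limma 0 in both). Its widest value was 0.56 ± 0.42 for Thrb in cerebellum (95% interval -0.32 to 1.45), followed by 0.35 ± 0.31 for Hr in striatum. The striatal minus the cerebellar effect, as the mean of the sexes, passed for 0 of 6 (0% of 12446 genes; 2278 at an unadjusted p under 0.05, 3 called by DESeq2 and none by limma). For Dio2 it was 0.40 ± 0.19 (95% interval 0.02 to 0.78, unadjusted p = 0.0412, adjusted p = 0.268 in edgeR), for Crym -0.34 ± 0.21 and for Thra -0.13 ± 0.08. Before adjustment, Dio2 was the 1 gene of the 6 whose interval left out 0, with PCB52 effects of opposite signs in the regions. That share is near the 2278 of 12446 among all genes and is not particular to these 6. Over the alternatives, fits without 1 library aside, its value ran from 0.31 to 0.47, with adjusted p-values of 0.247 to 0.736 (edgeR, DESeq2 or limma).

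Females against males, as the mean of the treatments, gave 0 of 6 genes in striatum, where 0.0494% of all genes passed, and 0 of 6 in cerebellum, where 0.0257% passed (edgeR). Unadjusted p-values under 0.05 were found for 396 and 182 genes, DESeq2 called 7 and 6 and limma 6 and 6, none of them among the 6. Without the libraries that held transcripts of both sexes edgeR called 5 genes in each region, and without those high in another tissue's genes 5 and 3, with 0 of the 6 in each. Slco1c1 had -0.18 ± 0.07 (log2) in striatum (unadjusted p = 0.0176, adjusted p = 1.00 in edgeR): Sham females had 115.9 ± 10.997 CPM (SD, n = 6) and Sham males 140.1 ± 13.2 (n = 4), PCB52 females 135.6 ± 21.5 (n = 6) and PCB52 males 145.0 ± 11.6 (n = 6). The other 5 genes differed between the sexes by at most 0.08 in striatum, where their SE was 0.05 to 0.16. In cerebellum Thrb had 0.28 ± 0.21. Males were assigned at 39 days and females at 42 days, so sex and age at assignment cannot be told apart in this comparison.

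The other genes of the pathway were taken from 4 lists. Of 7 other transporters, 4 were higher and 3 lower in striatum than in cerebellum of Sham animals (median log2 fold change 0.30, over all genes -0.03). In this comparison 69.8% of all genes passed. Among the higher were Slc16a10 by 1.45 ± 0.26, Slco1a4, another carrier of brain vessels, by 0.90 ± 0.09, and Slc7a5. Lower were Slco4a1 at -1.104 ± 0.17, Slc7a8 at -0.41 ± 0.17 and Slc3a2 at -0.22 ± 0.08. Slco1a4 stood at 95.2 ± 9.69 CPM (SD, n = 4) in striatal and 44.7 ± 3.01 (n = 5) in cerebellar Sham males.

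Of the metabolism and binding genes, 4 of 5 were tested and 1 passed, against 69.8% of all genes. Dio3, the inactivating deiodinase of neurons, was higher in striatum by 1.99 ± 0.40 (log2; 1.95 ± 0.58 CPM, SD, n = 4, against 0.359 ± 0.274, n = 5, in Sham males), and Secisbp2, Sult1a1 and Ttr did not pass (list median -0.12). The activating Dio1 stood below 1 CPM in every library and was not tested. Ttr, the thyroxine-binding protein made by choroid plexus, is 1 of that tissue's 8 markers: it reached 10688 CPM in striatum PCB52 female 20 and 2095 in cerebellum Sham male 1, the 2 libraries high for that list, and at most 82.8 in Sham males of striatum.

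Of 13 tested receptor partners and coregulators, 3 were higher and 1 lower in striatum, and 9 did not pass (list median 0.01), where 69.8% of all genes passed. Rxrg, the retinoid X receptor of striatal neurons, was higher by 5.41 ± 0.22, at 220.5 ± 57.1 CPM (SD, n = 4) in striatal and 4.95 ± 1.27 (n = 5) in cerebellar Sham males. Rxra was higher by 0.96 ± 0.10 and Tbl1xr1, a part of the corepressor complex, by 0.45 ± 0.17, and Gps2, of the same complex, was lower at -0.76 ± 0.09. The corepressor Ncor1, at -0.07 ± 0.21, did not pass.

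Among 21 tested genes known to respond to thyroid hormone in brain or liver, 8 were higher and 10 lower in striatum (list median -0.34), where 69.8% of all genes passed. Higher were Nrgn, a postsynaptic calmodulin-binding protein, by 8.62 ± 0.64, Rasd2, a striatal small GTPase, by 5.32 ± 0.15, and Thrsp by 1.28 ± 0.19. Lower were the Purkinje cell gene Pcp2 at -5.76 ± 0.29 and the neurotrophins Bdnf at -4.08 ± 0.57 and Ntf3 at -3.34 ± 0.42. Pcp2 and Calb1, the latter at -2.40 ± 0.12, are also 2 of the 7 Purkinje cell markers used here. Klf9, a direct target of the receptors, had 0.12 ± 0.11 and did not pass.

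**Figure D3:**
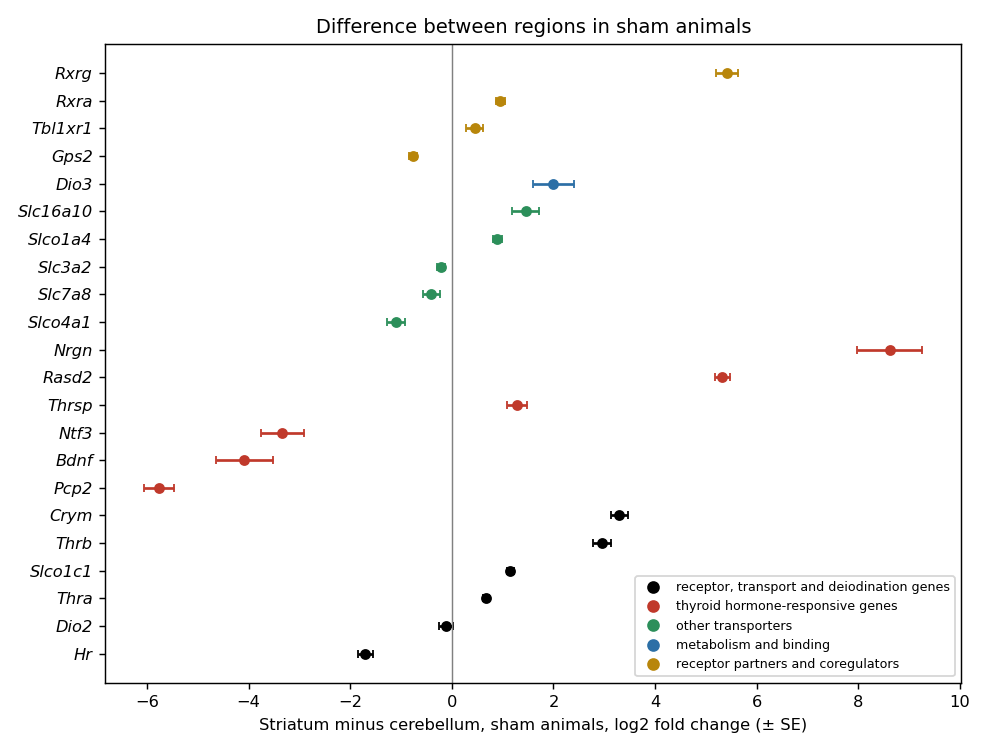
Striatum minus cerebellum in Sham animals as a log2 fold change with its SE (horizontal axis) for the 6 genes (black) and for genes of the pathway lists that passed an adjusted p of 0.05 with the widest change (coloured by list). Crym and Thrb, at 3.30 and 2.95, lie between Rxrg or Nrgn above and Slco1c1 and Thra below, and Hr at -1.70 lies on the cerebellar side with Pcp2, Bdnf and Ntf3.

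In the comparisons of PCB52 with Sham and of the sexes, 0 genes of these 4 lists passed in edgeR, and genes of lowest p in a list are given here. In striatal females this was Itga7, an integrin, at 0.61 ± 0.14 (unadjusted p = 2.14e-04, adjusted p = 0.222), from 19.6 ± 3.35 CPM in Sham to 30.0 ± 3.67 in PCB52 (SD, n = 6 each). Ttr was at 6.40 ± 1.64 there (edgeR adjusted p = 0.222), with its highest value in PCB52 female 20, where choroid plexus genes were high. In cerebellar males Ntf3 had 0.92 ± 0.32 and Hdac3 0.25 ± 0.10 (edgeR adjusted p = 0.313 for both) and Ttr -6.31 ± 1.66. Cerebellar Ttr in males was highest in Sham male 1, at 2095 CPM, where the choroid plexus list stood at 5.41 log2 CPM, against 1.49 to 20.6 CPM in the other Sham males; the part of that list was not tested. In cerebellar females the values were Nrgn 3.98 ± 0.95 (edgeR adjusted p = 0.926), Slc16a10 -0.52 ± 0.37, Secisbp2 -0.14 ± 0.10 and Hdac3 0.16 ± 0.09. Nrgn stood at 290, 261 and 87.8 CPM in PCB52 females 24, 16 and 18 and at 2.76 to 11.1 in Sham females. The cortical neuron list stood at 5.58, 4.58 and 5.32 log2 CPM in these 3 and at 4.68 to 4.90 in Sham females. The striatal projection neuron list stood at 3.63, 4.16 and 3.52 in the same order and at 3.10 to 3.63 in Sham females. PCB52 female 16 was thus lowest of the region for the first list and highest for the second. The part of these lists was not tested. In striatal males they were Bdnf 2.43 ± 1.35, Slc16a10 -0.45 ± 0.35, Dio3 -0.36 ± 0.47 and Crebbp 0.19 ± 0.16 (edgeR adjusted p = 1.00 for each). Bdnf stood at 8.81 and 2.60 CPM in PCB52 males 19 and 23 and at 0.797 or less in Sham males. The cortical neuron list stood at 5.38 and 4.26 log2 CPM in those 2 and at 1.71 to 3.03 in Sham males; its part was not tested.

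Between libraries of a group, 2 of 30 pairs of genes were related past the threshold by Pearson's r. With group means removed, Pearson's r and Spearman's rho were computed for the 15 pairs in each region over 22 libraries, and p-values came from 100000 two-sided permutations of libraries within groups, adjusted over 30 relations. Dio2 and Thra in cerebellum had an r of -0.755 (permutation p = 3e-04, adjusted 0.0090) and a rho of -0.683 (adjusted 0.0200). Cerebellar Thra and Crym had an r of 0.638 (permutation p = 0.0031, adjusted 0.0468) and a rho of 0.653 (adjusted 0.0200). By rho alone, 3 further pairs passed: Slco1c1 with Hr in striatum (r 0.500, rho 0.632, adjusted permutation p = 0.0200 for rho), Thrb with Dio2 in cerebellum (0.639, 0.623, 0.0400) and Dio2 with Hr in cerebellum (0.645, 0.708, 0.0200).

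Neither pair passed the adjusted threshold with fewer libraries or under another scaling. Without the 2 libraries farthest from the median on the x axis, Thra and Dio2 kept an r of -0.623 and Thra and Crym one of 0.613, and the adjusted permutation p was 0.0524 for both (n = 20), with none of the 30 relations past the threshold. With CPM scaled by library total in place of TMM, the values were -0.472 (adjusted permutation p = 0.133) and 0.496 (0.0860). In cerebellum the low end for Dio2 and Hr and the high end for Thra were held by few animals: PCB52 male 15 had the lowest Dio2 (21.9 CPM) and the highest Thra (601) and Nr1d1 (349), and PCB52 male 23 the lowest Hr and Thrb and the lowest astrocyte and endothelial lists of the region (6.76 and 4.13 log2 CPM). In striatum, Sham female 12 had the lowest Dio2 (19.8), Hr (22.4) and Thrb (41.9), the highest Crym (241) and Thra (835) and the lowest astrocyte and endothelial lists (7.48 and 5.38). The part of cell makeup in these relations was not tested.

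**Figure D4:**
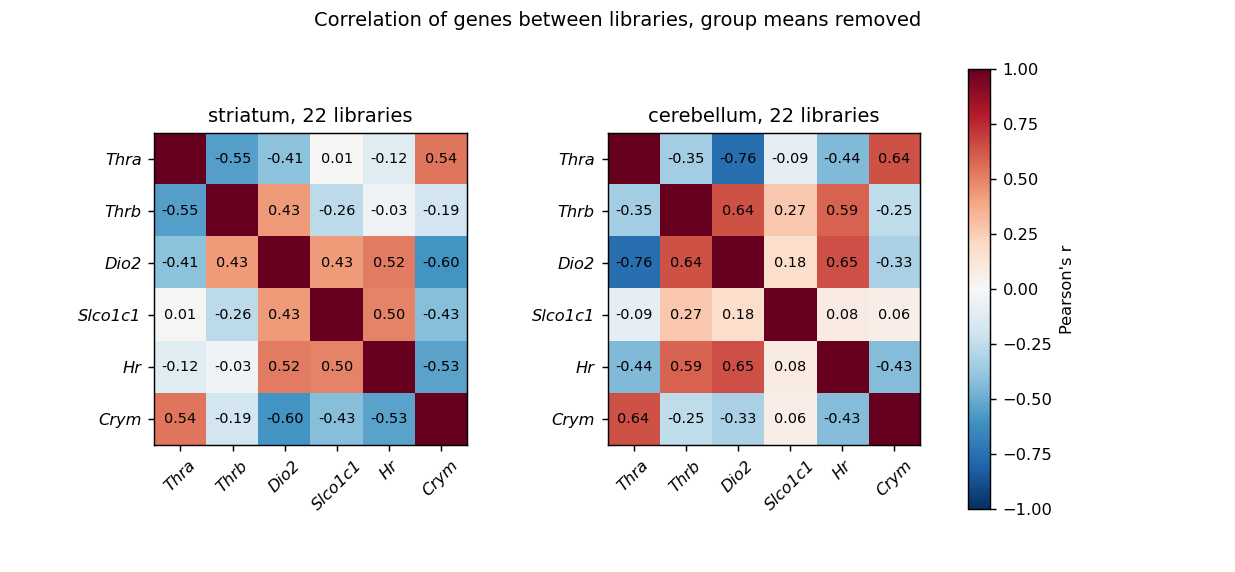
Pearson's r between each pair of the 6 genes over the 22 libraries of striatum (left) and cerebellum (right), from log2 CPM with group means removed; red is positive and blue negative, with the value in each cell. By r, only cerebellar Thra with Dio2 (-0.76) and Thra with Crym (0.64) passed the adjusted threshold. Thrb, Dio2 and Hr in cerebellum (0.59 to 0.65 with each other) and Thra with Crym in striatum (0.54) did not pass by r.

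No gene's level in one region was related past the threshold to the same animal's level in the other. Over the 21 animals with both libraries, r with group means removed was 0.510 for Crym (permutation p = 0.0384, adjusted 0.152 over 6), -0.434 for Thrb (permutation p = 0.0508, adjusted 0.152) and -0.184 to 0.179 for the other 4 genes (each with an adjusted permutation p of 0.650). Spearman's rho was 0.431 for Crym and -0.403 for Thrb (adjusted permutation p = 0.244 for both). Without the 2 animals farthest from the median, r was 0.518 and -0.493. Libraries marked for transcripts of both sexes or for another tissue's genes were not left out as sets, here or for the gene pairs.

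Among 9622 genes with a mean of at least 5 CPM, those most like each of the 6 were ranked by the lower of their within-region r over 22 libraries each, as a description of libraries that share depth and cell makeup. Among the genes most like Dio2 were Ntrk2 and Gpm6b (lower r of 0.869 and 0.849). Hr was most like Gprc5b, Unc5b and Nacad (0.916, 0.885 and 0.878), and these were the closest matches found. Thra was most like Polr1c, St6galnac6 and Npdc1 (0.797, 0.785 and 0.779), and Thrb like Rps6ka2, Rap1gap2 and Exoc5 (0.773, 0.769 and 0.762). Crym was most like Ly6e, Fgfbp3 and Kctd13 (0.667, 0.663 and 0.650). Slco1c1 was most like Tie1, an endothelial receptor on the marker list, Rassf2 and Card10, with the lowest likeness of the 6 (0.626, 0.533 and 0.533).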

How the data were processed

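Punches of striatum and cerebellum, each from 1 animal, were sequenced as messenger RNA. FastQC, the aligner HISAT2 and the rat build rn6 are named per the submitters' processing notes. Read counter, annotation and strand use: not given in the sources used here. Per the labels' protocols, either poly(A) capture or ribosomal RNA removal was used, with no statement of which.

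The deposited tables, 1 a region, hold raw whole-number counts for 15319 gene identifiers, of which 15230 (99.4%) matched a symbol in a GRCr8 table used for names and neighbours. Of 47 samples, 44 had a column; striatum Sham males 5 and 7 and cerebellum Sham male 5 are not analysed here. Groups and animal numbers came from the labels. No 2 libraries of a group agreed within sampling noise (chi-square over degrees of freedom 3.58 to 166, the highest for cerebellum PCB52 females 14 and 20). The lowest TMM factors were those of cerebellum PCB52 male 15, female 16, female 20 and male 23 (0.921, 0.934, 0.920 and 0.901). In the fits these libraries were left out only singly.

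Counts were tested with edgeR 4.0.16 (R 4.3.3; robust quasi-likelihood F-test, TMM, default filter), with 4 group means a region (12142 genes in striatum, 11690 in cerebellum) or 8 over both (12446), in 12 comparisons, with Benjamini-Hochberg adjustment over all genes and a threshold of 0.05. All 6 genes passed the filter in each fit. Log2 CPM used a prior count of 2. Both regions of an animal carry its number in the labels, so the fit with the animal as a block is a paired alternative; it changed no call of the 6 genes. Other alternatives were DESeq2 1.42.0, limma 3.58.1 voom with quality weights, DESeq2's size factors, no filter, each library left out in turn, and, chosen after seeing the data, leaving out libraries with transcripts of both sexes (Xist and Eif2s3y above 3 CPM) or with another tissue's list more than 2 log2 units above its region's median. The scripts were tested on simulated data.

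The 6 genes and all lists were chosen with earlier results of these data known. Named were the 6 genes, Nr1d1, and from each pathway list the genes past the threshold, at most 3 of the widest change in each direction, or where none passed the 1 of lowest p (printed for the comparisons within a sex only); some genes this rule names are not reported here. Slc7a5, Ncor1, Calb1, Klf9, Dio1 and, between regions, Secisbp2, Sult1a1 and Ttr were named after their values were seen. Ncoa3, Ep300, Rora and Emx1 were not analysed here. Marker lists not given with the results had these means in log2 CPM over the libraries of striatum and of cerebellum: meningeal fibroblast 3.46 to 5.69 and 2.59 to 5.58, ependyma or tanycyte 2.18 to 3.22 and 0.860 to 2.44, oligodendrocyte 8.91 to 10.6 and 7.97 to 9.50, Purkinje cell 4.52 to 6.35 and 9.16 to 9.93, cortical neuron 1.37 to 5.42 and 4.58 to 5.58, and choroid plexus 0.536 to 7.76 and 0.560 to 5.41.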

Additional observations from a re-analysis of the deposited data

Results flagged for a closer look

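Of 48 groups of 4 to 6 libraries tested for a single value far from the others (6 genes in 8 groups, where chance marks about 5% of such groups), 2 had one. Slco1c1 in cerebellum PCB52 female 20 was low, at 48.1 CPM against 60.4 to 66.7 in the other PCB52 females of the region. The same library had a low mean of the endothelial list (4.19 log2 CPM, against 4.33 to 5.03 in the others). Thrb in cerebellum PCB52 female 24 was high, at 19.9 CPM against 6.35 to 9.12 in the others. That library had the highest mean of the cortical neuron list in the region (5.58 log2 CPM) and a meningeal list mean of 5.47. The meningeal list was also high, at 5.58, in cerebellum PCB52 male 23, which had the lowest Thrb of the region. The part of these lists in either value was not tested.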

How the results depend on the processing

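The count of the 6 genes passing, 5 between regions and 0 in the other 11 comparisons, was the same under every alternative run: DESeq2, its size factors, limma, no filter, each library left out in turn, the 2 added library sets and, for the 2 comparisons that span regions, the fit with the animal as a block (paired value 5 and 0). With the block, the region difference was 3.37 for Crym, 2.91 for Thrb and -1.74 for Hr on the log2 scale, and that of the PCB52 effect on Dio2 was 0.47. This Dio2 value was the highest of a range of 0.31 to 0.47 over the alternatives other than leaving out 1 library. With 1 library left out it ran from 0.32 to 0.48. Leaving out 1 library kept the region difference of Thrb between 2.91 and 3.001 and that of Dio2 between -0.18 and -0.04.

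The count of 2 gene pairs past the adjusted threshold became 6 with no centring on group means, 4 with CPM by library total and 0 without the 2 farthest points. Both of the 2 were among the 6, and neither was among the 4. Those 4 were Thra with Crym in striatum, and Thrb with Dio2, Thrb with Hr and Dio2 with Hr in cerebellum. The cause was not tested. Of the correlations between an animal's regions, those that turned sign were Dio2 (-0.064 with no centring) and Slco1c1 (0.194 with no centring and 0.0042 without the 2 farthest points), none of which passed.

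Signs of differences that did not pass turned as follows, on the log2 scale, and the cause was not tested. With limma, Crym was 0.049 in striatal males, Thrb -0.089 for the striatal female minus male effect, Thrb 0.066 for the cerebellar mean, and Thrb -0.045 and Slco1c1 -0.071 for the striatal minus cerebellar effect. Without libraries with transcripts of both sexes, Crym was -0.027 in cerebellar males. Without libraries high in another tissue's genes, Thrb was -0.088 in striatal females and -0.016 for the striatal mean, and Thra 0.026 for that mean. With these left out, the female minus male effect was 0.09 for Crym, -0.14 for Thrb and -0.0041 for Dio2 in striatum and -0.030 for Dio2 in cerebellum. Females minus males then gave -0.039 for Thrb, -0.029 for Dio2 and 0.029 for Thra in striatum and 0.045 for Hr in cerebellum, and the striatal minus cerebellar effect of Slco1c1 was -0.020. Other values kept their sign but moved. For PCB52 minus Sham in cerebellar males, Thrb ran from -0.41 to -0.048 and Hr from -0.39 to -0.12 over these alternatives.

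Leaving out 1 library gave these ranges where a sign turned. For PCB52 minus Sham in striatal males they were -0.20 to 0.11 (Crym), -0.25 to 0.025 (Hr), -0.020 to 0.26 (Dio2) and -0.0067 to 0.091 (Slco1c1), in striatal females -0.052 to 0.19 (Thrb), and for the striatal mean -0.029 to 0.0027 (Thra). In cerebellum they were -0.033 to 0.22 (Crym, males), -0.13 to 0.30 (Thrb, females), -0.13 to 0.053 (Hr, females) and -0.24 to 0.0086 (Thrb, mean). For the female minus male effect they were -0.14 to 0.10 (Thrb) and -0.043 to 0.24 (Dio2) in striatum, and -0.11 to 0.17 (Dio2) and -0.067 to 0.024 (Thra) in cerebellum. For females minus males they were -0.0059 to 0.15 (Crym), -0.036 to 0.089 (Thrb), -0.052 to 0.14 (Hr), -0.062 to 0.080 (Dio2) and -0.024 to 0.0088 (Thra) in striatum and -0.071 to 0.045 (Hr) in cerebellum. For the striatal minus cerebellar effect of Slco1c1 they were -0.017 to 0.049.

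Cerebellar Thrb, with 18 to 144 counts a library, has the largest counting error of the 6 genes; its values also spread between libraries, from 2.95 CPM in PCB52 male 23 to 19.9 in PCB52 female 24. Striatal Sham males, with 4 libraries, limit the male comparison there.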
